A study of Mus musculus with 12 samples.

Results

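The lipid transport genes Apoe, Fabp4, Fabp5, Cd36, Gpihbp1, Lpl, Angptl4 and Pparg were followed across the vessel, stromal and immune cells of resting and inflamed mouse lymph nodes. They are 8 of the 32285 features of the count matrices and were matched by symbol. They were chosen partly because Apoe and Angptl4 had been seen to be lower at day 3 of inflammation in these libraries, so every day 3 value of these 8 genes against vehicle is given below as a description, with no test. The lymph nodes came from C57BL/6 mice of 7 to 10 weeks that carried floxed alleles of the autophagy gene Atg12 (ATG12 fl/fl) and were either positive or negative for CDH5 CreER, a tamoxifen-dependent Cre driven by the endothelial Cdh5 promoter. All groups received tamoxifen 5 times. The mice were then treated on shaved abdominal skin with acetone and olive oil alone (vehicle) or with 4% oxazolone, a contact sensitizer, in the same solvent. Lymph nodes were collected 3 or 7 days after oxazolone. The sample labels give no day for vehicle, so the same vehicle libraries serve both days and are not shown to match either in time. Each of the 6 combinations of treatment and genotype gave 1 library of the fraction left after bead depletion of CD45+ cells, labelled CD31 and endothelial cells, and 1 library of the bead-bound fraction, labelled CD45 and immune cells, 12 libraries in all. The number of mice behind a library is not given in the labels.

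Circulating triglyceride is hydrolysed at the capillary wall. Lipoprotein lipase, encoded by Lpl, is made mostly by parenchymal and stromal cells and is carried to the capillary lumen by the endothelial protein GPIHBP1, while ANGPTL4 is a secreted inhibitor of the lipase. CD36 takes up the released long-chain fatty acids, the cytoplasmic proteins FABP4 and FABP5 bind them, and the nuclear receptor PPARG is a known activator of Fabp4, Cd36 and Angptl4 in fat and endothelium. Apolipoprotein E, encoded by Apoe, is a ligand for receptors of the LDL receptor family and takes part in cholesterol export, with macrophages among its main sources.

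In GRCm38 coordinates (GENCODE M21), Apoe lies at chr7:19696109-19699188 on the minus strand, Fabp5 at chr3:10012548-10016607 on the plus strand and Fabp4 on the same chromosome at chr3:10204088-10208576 on the minus strand. Cd36 spans chr5:17781690-17888801 on the minus strand and Pparg spans chr6:115360951-115490399 on the plus strand. Lpl lies at chr8:68880491-68907448 (plus), Gpihbp1 at chr15:75596628-75599481 (plus) and Angptl4 at chr17:33773750-33781830 (minus).

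Promoter sequence was matched by symbol for 3 of the 8 genes: Apoe, Cd36 and Pparg. The 250 bases before the first listed start are shown 5′ to 3′ from RefSeq on GRCm38.p6, because Cd36 and Pparg were high in the same capillary cells whereas Apoe was highest elsewhere, and a PPAR-type receptor reads repeats of the core site AGGTCA. Capitals mark AGGTCA on either strand. The windows lie at chr5:17835897-17836146 (minus strand) for Cd36, chr6:115360894-115361143 (plus strand) for Pparg and chr7:19699189-19699438 (minus strand) for Apoe.
Cd36: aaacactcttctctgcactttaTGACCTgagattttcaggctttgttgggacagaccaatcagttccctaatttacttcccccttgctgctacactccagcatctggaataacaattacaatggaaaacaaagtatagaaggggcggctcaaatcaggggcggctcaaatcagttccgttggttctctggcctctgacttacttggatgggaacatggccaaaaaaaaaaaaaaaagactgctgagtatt
Pparg: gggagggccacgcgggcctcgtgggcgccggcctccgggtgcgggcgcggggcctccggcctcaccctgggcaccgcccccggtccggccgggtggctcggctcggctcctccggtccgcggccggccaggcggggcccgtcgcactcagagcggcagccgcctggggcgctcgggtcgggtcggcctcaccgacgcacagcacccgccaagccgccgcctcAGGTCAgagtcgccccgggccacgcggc
Apoe: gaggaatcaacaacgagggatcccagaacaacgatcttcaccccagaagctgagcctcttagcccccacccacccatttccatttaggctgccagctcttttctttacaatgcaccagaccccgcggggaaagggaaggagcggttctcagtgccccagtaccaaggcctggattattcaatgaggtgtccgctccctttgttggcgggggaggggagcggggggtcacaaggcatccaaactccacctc
The core site occurred once in the Cd36 window, on the reverse strand, and once in the Pparg window, and these letters are not in the Apoe window. Of all 32851 promoter windows of this length, 4607 (14%) hold AGGTCA on either strand and 11 (0.0335%) hold the direct repeat AGGTCANAGGTCA, which is in none of the 3 windows shown. These are letter matches, not measured binding.

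After filtering, 89054 cells remained, 5698 to 10553 per library, with 36724887 to 76186801 UMIs (unique molecule counts) per library and a median of 3433 to 6193.5 UMIs per cell. A shallow cluster of the CD31 fraction (cluster 7, median 1360.5 UMIs) held 2297 cells of the day 3 library labelled Cre-positive and 646 of the vehicle Cre-negative one. Each other CD31 library had 4 to 18 of its cells, and it is part of no class described here. No pair of libraries shared more than 0.384% of the cell barcodes of the smaller one. The fractions were not pure: the 6 CD31 libraries held 6011 B cell-like and 5452 T cell-like cells, and the 6 CD45 libraries held 8611 fibroblast-like cells, which is why stroma is described from the libraries labelled CD45. Atg12, the targeted gene, stood at 46.1, 51.6 and 42.0 CPM (counts scaled to a common total of UMIs, as defined below) in capillary-like cells of the Cre-negative libraries (vehicle, day 3, day 7). It was at 84.7, 80.7 and 84.0 CPM in those labelled Cre-positive, so it was higher, not lower, in the latter. The gap was not confined to capillary-like cells. Arterial-like cells had 47.1, 51.03 and 53.2 against 70.5, 58.1 and 113.6 CPM, from 19 to 42 UMIs per library. At day 7 their gap was wider than that of capillary-like cells. Lymphatic endothelial-like cells had 57.96, 47.7 and 51.9 against 82.4, 72.7 and 59.2 CPM. Cluster 9 had 51.9, 52.7 and 52.9 against 78.6, 63.3 and 64.5 CPM. The gap was smaller in HEV-like cells, with 45.8, 44.5 and 43.0 against 52.5, 49.8 and 43.9 CPM. In CD45 fibroblast-like cells the levels were 30.4, 28.5 and 31.2 against 31.9, 34.0 and 31.3 CPM. The libraries count 3′ ends and the deleted exon is not given in the labels, so this checks neither label nor deletion, and genotype below means the label. Cells were grouped by clustering without the 8 genes, and a name ending in "-like" rests on marker genes. Levels in CPM are a gene's UMIs summed over the cells of a class in a library, divided by all UMIs of that sum.

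Fabp4, Cd36, Gpihbp1 and Pparg had their highest levels in the same vessel cells. Capillary-like cells were named from Car4 and other capillary markers, and Cd36 and Pparg, which were left out of the clustering, were themselves among their leading genes. They had a lowest, median and highest level over the 6 CD31 libraries of 34968, 38345 and 46382 CPM for Fabp4. In the same cells Cd36 ranged from 5306 through 6767 to 7524 CPM, Gpihbp1 from 1942 through 2318 to 2624 CPM, and Pparg from 720.2 through 1001 to 1209 CPM. Cluster 9, with capillary markers behind haemoglobin genes, was close to them, with medians of 60196 CPM for Fabp4, 5311 CPM for Cd36, 3398 CPM for Gpihbp1 and 473 CPM for Pparg. Clusters 3, 4, 6 and 10 carry capillary markers too, and cluster 4 scored higher for them (3.20) than capillary-like cells (3.12). Their medians were only 1330 to 2385 CPM for Fabp4, 107 to 379 CPM for Cd36, 361 to 506 CPM for Gpihbp1 and 34.8 to 79.5 CPM for Pparg. The high levels thus belong to part of the cells with capillary markers. Of the UMIs in the CD31 libraries, capillary-like cells carried 41.3% for Fabp4, 46.5% for Cd36, 32.3% for Gpihbp1 and 44.2% for Pparg, and cluster 9 carried 32.5% for Fabp4, 23.5% for Gpihbp1 and 11.2% for Pparg. After thinning each cell to 1000 UMIs, Cd36 was detected in 97.7% to 99.8% of capillary-like cells per library and Gpihbp1 in 76.4% to 87.4% (99.7% to 100% and 88.5% to 96.2% without thinning). The thinned shares in B cell-like cells were 1.46% to 1.97% for Cd36 and 0.115% to 0.859% for Gpihbp1. B cell-like cells are not taken as a blank for Cd36. In the CD45 libraries they had 12.9 to 21.5 CPM of it, and T cell-like cells 0 to 0.362 CPM. Median depth was 1863 to 2882 UMIs per capillary-like cell and 2930.5 to 3651 UMIs per B cell-like cell.

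**Figure D1:**
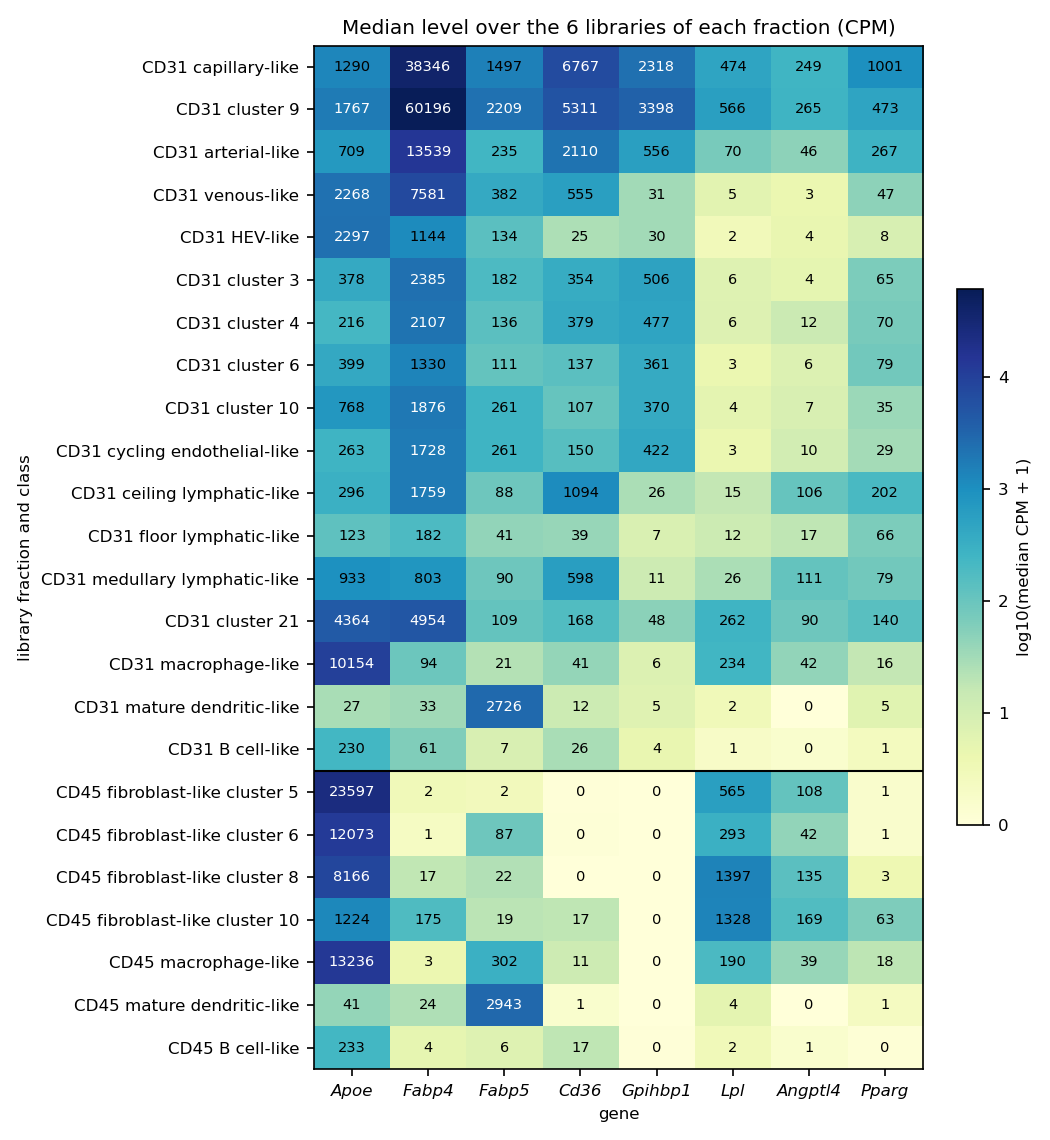
Median level of the 8 genes over the 6 libraries of a fraction, by cell class (rows) and gene (columns), as log10(CPM + 1) in colour. Fabp4, Cd36, Gpihbp1 and Pparg are highest in capillary-like cells and cluster 9, and Apoe is highest in fibroblast-like cluster 5 (23597 CPM).

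Other vessel types carried parts of the set. Arterial-like cells had medians of 13539 CPM for Fabp4, 2110 CPM for Cd36, 556 CPM for Gpihbp1 and 267 CPM for Pparg, all below the lowest capillary-like library. In HEV-like cells, the high endothelial venules through which lymphocytes enter the node (Glycam1, Fut7), Cd36 had a median of 24.9 CPM, Gpihbp1 of 30.4 CPM and Pparg of 7.93 CPM, and Fabp4 of 1144 CPM. With a fixed share of free RNA subtracted, the median of Cd36 in these cells was 6.24 CPM, and with no doublet removal it was 36.5 CPM. Venous-like cells, 17 to 63 per library, had Fabp4 at 6977 to 8322 CPM and Gpihbp1 at a median of 31.3 CPM. Their Apoe level was 787 to 3778 CPM, with a median of 2268 CPM beside 2297 CPM in HEV-like cells. Lymphatic endothelium divided by position: ceiling lymphatic-like cells (Ackr4) had Cd36 at 1011 to 1206 CPM and Pparg at 108 to 274 CPM, whereas floor lymphatic-like cells had Cd36 at 18.5 to 66.8 CPM and Pparg at 58.8 to 71.1 CPM. Gpihbp1 was at or below 29.2 CPM in every library of both lymphatic classes. Each of these orders describes classes made from gene expression, so no class was tested against another.

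Lpl and Angptl4, the lipase and its inhibitor, were split between endothelium and stroma. Lpl was at 458 to 644 CPM in capillary-like cells and at 435 to 1390.0 CPM in fibroblast-like cells of the CD45 libraries, where 98.0% of that fraction's Lpl UMIs lay. Among fibroblast-like cells, Lpl had medians of 1397 CPM in cluster 8 (Mgp, F3), 1328 CPM in cluster 10 (Pi16), 565 CPM in cluster 5 (Cxcl12, Lepr) and 293 CPM in cluster 6 (Cxcl13, Ccl19). The ranges of cluster 8 (801 to 2005 CPM) and cluster 10 (739 to 2045 CPM) overlapped. Angptl4 had medians of 249 CPM in capillary-like cells, 265 CPM in cluster 9, 106 CPM in ceiling lymphatic-like cells, 104 CPM in fibroblast-like cells and 3.59 CPM in HEV-like cells. Gpihbp1 was at 0 to 0.119 CPM in fibroblast-like cells of the 6 CD45 libraries.

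Outside endothelium, Fabp5 was high in cells with little Fabp4. Mature dendritic-like cells (Ccl22, Fscn1, Cacnb3) of the CD45 libraries carried 59.9% of that fraction's Fabp5 UMIs, at a median of 2943 CPM, with Fabp4 in the same cells at 4.82 to 64.9 CPM. In order of vehicle, day 3 and day 7, each Cre-negative then Cre-positive, Fabp5 stood at 3045, 959, 6527, 3475, 1826 and 2840.5 CPM in these cells. Both day 3 libraries were above the other 4, and the vehicle library labelled Cre-positive was lowest. The mature dendritic-like cells left in the CD31 libraries had 2312, 912, 5265, 4584, 1411 and 3139 CPM in the same order, again with both day 3 libraries highest. Monocyte-like cells, 16 to 103 per library, had Fabp5 at 1659 and 1579 CPM at day 3 and at 182 to 428 CPM in the other 4 libraries. In CD31 endothelium Fabp5 had its highest medians where Fabp4 did, at 2209 CPM in cluster 9 and 1497 CPM in capillary-like cells. In capillary-like cells the day 3 libraries were not the highest, with Fabp5 at 1543, 1249, 1505, 1349, 1489.5 and 1818 CPM.

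Apoe was a gene of stroma and macrophages first and of venules second. CD45 fibroblast-like cells held 95.9% of that fraction's Apoe UMIs, and cluster 5 among them had a lowest, median and highest level of 16743, 23597 and 29666 CPM. CD45 macrophage-like cells were at 7553 to 16810.2 CPM and the macrophage-like cells of the CD31 libraries, 9 to 31 per library, at 7717 to 14741 CPM. Within the CD31 libraries, however, 36.2% of the Apoe UMIs came from HEV-like cells and 9.4% from macrophage-like cells. Further subclusters of the same myeloid cluster with C1qa, not in that class, had Apoe at 7181, 6259 and 5403 CPM. The 9.4% thus does not cover all cells with macrophage genes. Apoe RNA was also free in the suspension: barcodes with 10 to 100 UMIs had 638 to 2039 CPM of Apoe in the CD31 libraries and 2665 to 10729 CPM in the CD45 libraries. B cell-like cells had 103 to 292 CPM in the CD31 libraries. After thinning to 1000 UMIs, 7.2% to 16.2% of them had an Apoe UMI, against 35.8% to 85.7% of HEV-like cells (18.1% to 35.4% and 74.7% to 98.5% without thinning). T cell-like cells of the same libraries had only 11.3 to 24.0 CPM, so the B cell-like level is not taken as a blank for free RNA.

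In HEV-like cells Apoe was at 2930.1 CPM in the vehicle library labelled Cre-negative and at 4177 CPM in the one labelled Cre-positive, at 975 and 711 CPM at day 3, and at 4815 and 1665 CPM at day 7. Both day 3 libraries were below the other 4. The vehicle level was 3.00 times the day 3 level in the Cre-negative libraries and 5.87 times in those labelled Cre-positive. On the log2 scale the fitted day 3 difference was -2.21 (SE 0.46), and it was -1.28 without the vehicle library labelled Cre-positive and -2.90 without the other vehicle library, the ends of the range over 13 fits. At day 7 the labels stood apart: Apoe was 1.64 times its vehicle level in the Cre-negative library and 0.40 times in the one labelled Cre-positive. With 1 library per combination, that gap was not tested. Free Apoe RNA in the CD31 libraries was also lowest at day 3, at 2039 and 1295 CPM in vehicle, 646 and 638 CPM at day 3, and 1862 and 681 CPM at day 7, and its part in the HEV-like values was not tested beyond subtracting a fixed share. The summed level of the 10 macrophage markers in HEV-like cells was 12.5 to 20.9 CPM in vehicle and 12.6 to 28.1 CPM at day 3, and that of the 8 fibroblast markers stayed at or below 2.43 CPM.

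**Figure D2:**
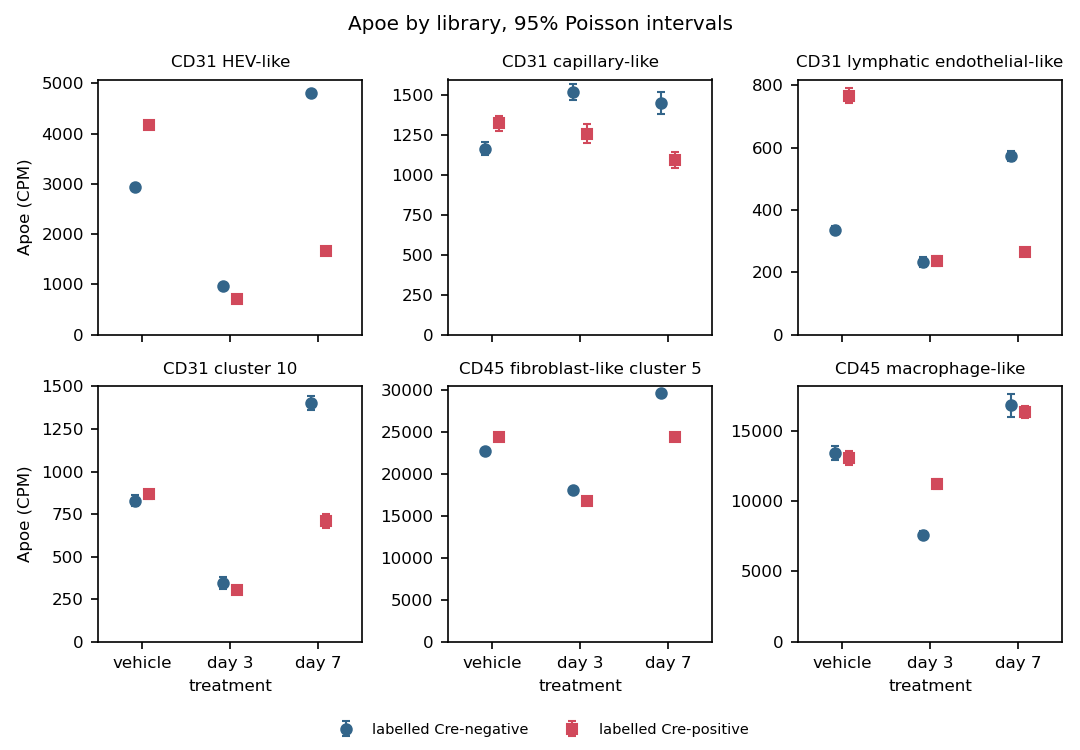
Apoe level (CPM, linear axis from 0) in each library for 6 cell classes, with exact 95% Poisson intervals that cover counting error only. Circles are libraries labelled Cre-negative and squares Cre-positive. HEV-like cells have both day 3 libraries (975 and 711 CPM) below the other 4, and capillary-like cells stay between 1093 and 1520.2 CPM.

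The lower Apoe level at day 3 ran through the HEV-like cells. They fell into 4 subclusters, and over all 4 the vehicle libraries were at 2282 to 5224 CPM and the day 3 libraries at 369 to 1633 CPM, without overlap. Subcluster 0, with low Glycam1 and with Rgcc, Prnd and Aplnr, had Apoe at 2661 and 2282 CPM in vehicle, 584 and 369 CPM at day 3, and 3173 and 1270.1 CPM at day 7. Its share of the HEV-like cells also shifted, from 32.2% and 21.6% in vehicle to 46.5% and 58.5% at day 3, and it was 22.8% and 55.6% at day 7. Without subcluster 0, Apoe stood at 3028 and 4573 CPM in vehicle, 1293 and 1115 CPM at day 3, and 5125 and 2072 CPM at day 7. The 6 libraries kept the order they had over all HEV-like cells. Glycam1, the sialomucin that defines these venules, had another order, at 25965 and 22790.1 CPM in vehicle, 23435 and 12155 CPM at day 3, and 79868 and 14013 CPM at day 7.

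**Figure D3:**
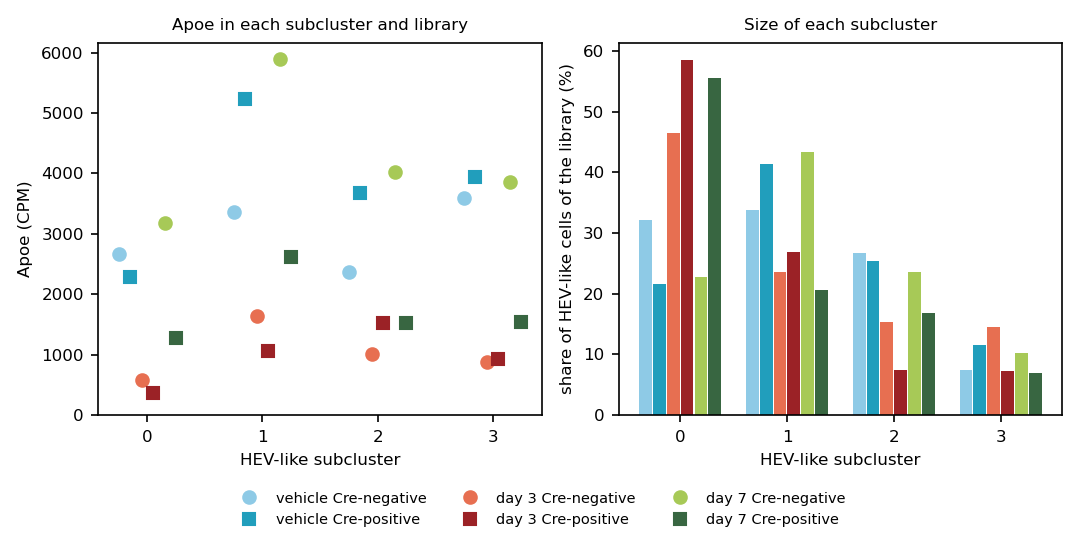
Apoe level (CPM) in each HEV-like subcluster and library, and the share of HEV-like cells in each subcluster. In every subcluster both day 3 libraries lie below both vehicle libraries, and subcluster 0 holds 46.5% and 58.5% of the HEV-like cells at day 3.

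Other endothelium was divided. Apoe was also lower at day 3 in both genotypes in ceiling, floor and medullary lymphatic-like cells, in cycling endothelial-like cells and in clusters 3, 4, 6 and 10, which carry capillary markers too. It was higher in both genotypes in cluster 9, and the genotypes differed in direction in capillary-like and arterial-like cells. Lymphatic endothelial-like cells had Apoe at 336 and 766 CPM in vehicle, 232 and 236 CPM at day 3, and 572 and 266 CPM at day 7, a fitted day 3 difference of -1.20 (SE 0.47), or -0.20 without the vehicle library labelled Cre-positive. The 10 macrophage markers summed to 88.1 to 155 CPM in these cells in vehicle and to 90.2 to 128 CPM at day 3. The day 3 Apoe levels of lymphatic endothelial-like cells lay within the 103 to 292 CPM of B cell-like cells. They were above the 11.3 to 24.0 CPM of T cell-like cells in the CD31 libraries. Cluster 10 (Prnd, Enpp2) had 828 and 865 CPM in vehicle, 345 and 303 CPM at day 3, and 1402 and 707 CPM at day 7. Capillary-like cells were at 1164 and 1322 CPM in vehicle, 1520.2 and 1258 CPM at day 3, and 1451 and 1093 CPM at day 7, with overlapping groups and a fitted difference of 0.15 (SE 0.17). Arterial-like cells were at 639 and 767 CPM in vehicle and at 1279.8 and 711 CPM at day 3. In the fit of both vessel types together, the day 3 difference of Apoe in capillary-like cells minus that in HEV-like cells was 2.28 on the log2 scale (SE 0.29), between 1.75 and 2.81 over its alternatives. Counted over the 16 separate CD31 classes with at least 20 cells in each library, Apoe was lower at day 3 in both genotypes in 11, B cell-like and T cell-like cells included, and higher in both in 2. The classes of a library share its free RNA, so they are not 16 independent observations.

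In stroma, composition moved with Apoe. All fibroblast-like cells together had Apoe at 10923 and 16089.8 CPM in vehicle, 8401 and 11503 CPM at day 3, and 23589.9 and 17400.0 CPM at day 7, and vehicle and day 3 overlapped. Cluster 5, the Apoe-rich cells with Cxcl12 and Lepr, made up 34.9% and 55.7% of fibroblast-like cells in vehicle, 9.3% and 13.5% at day 3, and 65.0% and 52.7% at day 7. Cluster 6, with Cxcl13 and Ccl19, made up 9.31% and 8.21%, then 67.4% and 65.1%, then 13.2% and 12.7%. Within cluster 5, Apoe was at 22736 and 24458 CPM in vehicle, 18121 and 16743 CPM at day 3, and 29666 and 24460.0 CPM at day 7, so both day 3 libraries were again lowest. Cluster 6 had 12057 and 18998 CPM in vehicle and 8811 and 12017 CPM at day 3, and cluster 8 had 7745 and 8506 CPM in vehicle and 4956 and 7826 CPM at day 3, lower in both genotypes in each. Cluster 10, the Pi16 cells, went the other way at day 3, with 1096 and 482 CPM in vehicle and 2273 and 1261 CPM at day 3. CD45 macrophage-like cells had 13400.2 and 13071 CPM in vehicle, 7553 and 11211 CPM at day 3, and 16810.2 and 16320.1 CPM at day 7, from 13 to 35 cells a library, too few for a fit.

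Angptl4 followed treatment in the capillary cells that carry the other lipid genes. In capillary-like cells it was at 522 and 212 CPM in vehicle, 104 and 78.4 CPM at day 3, and 286 and 385 CPM at day 7. Both day 3 libraries were below the other 4. The vehicle level was 5.02 times the day 3 level in the Cre-negative libraries and 2.71 times in those labelled Cre-positive, and the fitted log2 difference was -1.95 (SE 0.28). It was -1.16 without the Cre-negative vehicle library and -2.52 without the Cre-positive one, the ends of the range over 13 fits. Both day 3 libraries were also lowest in cluster 9, with 795 and 255 CPM in vehicle, 176 and 122 CPM at day 3, and 275 and 559 CPM at day 7. Arterial-like cells had 136 and 35.3 CPM in vehicle, 20.4 and 17.9 CPM at day 3, and 56.0 and 78.6 CPM at day 7. Fibroblast-like cells of the CD45 libraries had 177 and 70.1 CPM in vehicle, 44.5 and 47.7 CPM at day 3, and 138 and 172 CPM at day 7. The labels do not say whether both fractions came from the same mice, so they are not taken as independent. Within fibroblast-like cluster 5 Angptl4 was at 167 and 66.6 CPM in vehicle and 26.7 and 64.6 CPM at day 3. It was lower at day 3 in both genotypes in clusters 5, 8 and 10 but not in cluster 6, which had 62.7 and 8.93 CPM in vehicle and 35.1 and 46.5 CPM at day 3 and held the larger share of fibroblast-like cells at day 3. The fitted day 3 differences were -1.78 (SE 0.35) in cluster 9, -2.07 (SE 0.48) in arterial-like cells and -1.30 (SE 0.36) in fibroblast-like cells, and without the Cre-negative vehicle library they were -0.60, -0.73 and -0.51.

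HEV-like cells had little Angptl4 at any time, 1.83 to 9.41 CPM, and their fitted day 3 difference was -0.10 (SE 0.66). The capillary-like minus HEV-like difference at day 3 was -1.84 for Angptl4 (SE 0.43), between -2.98 and -0.98 over its alternatives, against the 2.28 for Apoe given above. Ceiling lymphatic-like cells had 166 and 50.5 CPM of Angptl4 in vehicle and 78.0 and 51.1 CPM at day 3, and these overlapped. After thinning, 8.0% to 35.4% of capillary-like cells per library had an Angptl4 UMI (13.8% to 65.2% without thinning), against at most 0.247% of B cell-like cells per library. Free Angptl4 RNA in the CD31 libraries was at 60.2 and 22.9 CPM in vehicle, 17.6 and 7.99 CPM at day 3, and 44.2 and 71.2 CPM at day 7, also lowest in the day 3 libraries, and its part was not tested beyond subtracting a fixed share. The 6 adipocyte markers summed to 68.8 and 110.0 CPM in capillary-like cells of the vehicle libraries and to 77.3 and 34.9 CPM at day 3. Adipoq in these cells was at 3.49 and 7.31 CPM in vehicle, 0.859 and 0 CPM at day 3, and 0.858 and 3.84 CPM at day 7. These levels rest on 0 to 17 UMIs per library. Plin1 was at 1.10 to 4.29 CPM over all 6 libraries. The part of adipocyte RNA in the Angptl4 values was not tested.

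**Figure D4:**
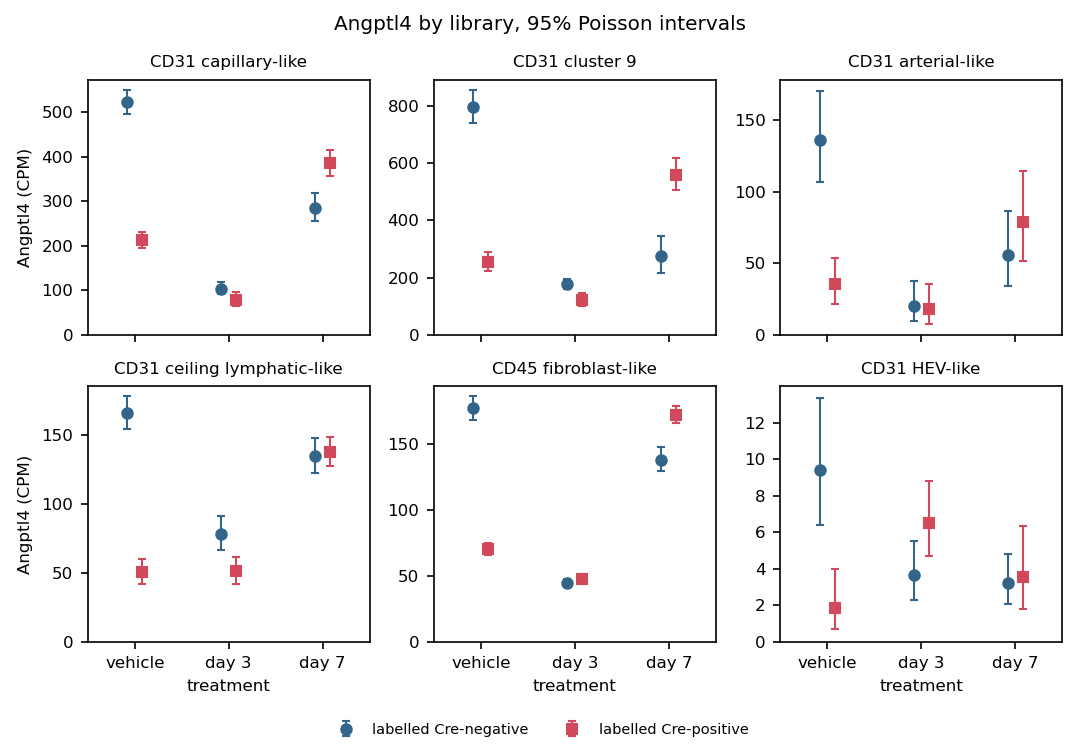
Angptl4 level (CPM, linear axis from 0) in each library for 6 cell classes, with exact 95% Poisson intervals. Circles are libraries labelled Cre-negative and squares Cre-positive. In capillary-like cells the day 3 libraries (104 and 78.4 CPM) lie below the other 4, and in vehicle the library labelled Cre-positive lies below the other one.

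Angptl4 differed by label in opposite directions in vehicle and at day 7. In vehicle, the library labelled Cre-positive had the lower Angptl4 level in 16 of 16 CD31 classes, and in 6 of 9 CD45 classes with none higher. At day 7 it had the higher level in 13 of 16 CD31 classes and in 9 of 9 CD45 classes. At day 3 it was lower in 8 and higher in 7 of the 16 CD31 classes. Each of these comparisons is 1 library against 1 library in each fraction and all classes of a library share it, so the counts describe these libraries and were not tested. Some classes counted were near the floor. Over 6 libraries Angptl4 had 1 UMI in type 2 and 6 in mature dendritic-like cells of the CD45 fraction, and 5 in mature dendritic-like and 11 in B cell-like cells of the CD31 fraction. Free Angptl4 RNA in the CD45 libraries was at 37.7 and 20.3 CPM in vehicle and 22.9 and 84.8 CPM at day 7, the same direction by label, and its part was not tested. In the CD31 libraries the genes of the set were divided. In vehicle the library labelled Cre-positive was lower in 13 of 16 classes for Fabp5, 13 for Fabp4 and 12 for Cd36, and at day 7 it was higher in 14, 11 and 11. At day 3 it was lower in 12 of 16 classes for Fabp5, 8 for Fabp4 and 4 for Cd36. Apoe ran the other way, lower in 7 and higher in 9 classes in vehicle and lower in 13 and higher in 3 at day 7. Gpihbp1 was lower in most classes in vehicle and at day 7 (12 and 9 of 16), Lpl was higher in most at these times (10 and 11 of 16), and Pparg was lower in 9 in vehicle and higher in 13 at day 7. At day 3 the library labelled Cre-positive was lower in 11 of 16 classes for Lpl, 9 for Gpihbp1, 9 for Apoe and 8 for Pparg. In the CD45 libraries Fabp5 was lower in the one labelled Cre-positive in 9 of 9 classes in vehicle and 8 of 9 at day 3, and at day 7 it was lower in 4 and higher in 5.

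For the other 6 genes, the fitted log2 day 3 difference in capillary-like cells was -0.36 for Pparg (SE 0.16), -0.21 for Cd36 (SE 0.18), -0.20 for Gpihbp1 (SE 0.17), -0.17 for Fabp4 (SE 0.20), 0.04 for Fabp5 (SE 0.18) and 0.28 for Lpl (SE 0.16). Pparg stood at 1011 and 1054 CPM in vehicle, 720.2 and 889.7 CPM at day 3, and 992 and 1209 CPM at day 7. The day 3 libraries were the lowest, and the share of all genes with this order is not given here. Pparg was lower at day 3 in both genotypes in 12 of 16 CD31 classes and higher in both in none. Gpihbp1 was lower in both genotypes in 8 of 16 CD31 classes, and Fabp5 was higher in both in 10. Lpl in capillary-like cells was at 458 and 481 CPM in vehicle, 499 and 644 CPM at day 3, and 468 and 459.9 CPM at day 7. Elsewhere some fitted day 3 differences of these 6 genes were larger. They were 2.32 for Fabp4 (SE 0.35) and 1.40 for Fabp5 (SE 0.44) in CD45 mature dendritic-like cells, and -1.91 for Cd36 (SE 0.67) in fibroblast-like cells, where Cd36 was at only 0.280 to 5.20 CPM. In fibroblast-like cells Lpl had 1146 and 580.3 CPM in vehicle, 435 and 636 CPM at day 3, and 749 and 1390.0 CPM at day 7, with overlapping vehicle and day 3 values.

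Genotype was tested over the 3 treatments, with 3 libraries on each side. The tests were planned for named classes, of which 4 endothelial ones had enough cells: capillary-like, HEV-like, arterial-like and lymphatic endothelial-like. Other endothelial clusters had enough cells too but were not in the plan. In the 4 planned classes, none of the 31 pairs of gene and class that could be tested was called by edgeR's quasi-likelihood test at a Benjamini-Hochberg adjusted p under 0.05, beside a background of 0.0361% of all pairs. By class the background was 0.0875% in capillary-like, 0.0174% in HEV-like, 0.0439% in arterial-like and 0.00773% in lymphatic endothelial-like cells. DESeq2 called 0 of the 31 pairs as well, beside 0.0313% of all pairs, and 3 pairs had an unadjusted p under 0.05 by edgeR: Fabp5 in HEV-like cells and Fabp4 and Angptl4 in arterial-like cells. Fabp5 in HEV-like cells was at 117, 129 and 95.9 CPM in the Cre-negative libraries (vehicle, day 3, day 7) and at 139.6, 178 and 141 CPM in those labelled Cre-positive, without overlap, a log2 difference of 0.39 (SE 0.10) with an adjusted p of 0.733. Angptl4 differed by -0.79 (SE 0.36) in arterial-like cells, by -0.44 (SE 0.22) in capillary-like cells and by -0.67 (SE 0.44) in lymphatic endothelial-like cells. Apoe in HEV-like cells differed by -0.52 (SE 0.37), and by -1.07 to 0.06 over 16 fits. Leaving out day 7 brought 2 calls, Angptl4 lower by label in capillary-like cells (-0.93) and lymphatic endothelial-like cells (-1.33), whose direction at day 7 was the opposite. In those fits the background also rose, to 0.665% and 0.6% of genes. Leaving out vehicle, or either vehicle library, brought 1 call, Fabp4 lower by label in arterial-like cells (-0.35), beside a background of 0.667% without vehicle. The day 3 libraries carried that difference (21140.1 CPM against 12559 CPM in the one labelled Cre-positive), and at day 7 the one labelled Cre-positive was slightly higher (11441 against 11072 CPM). Each of these reduced fits has 1 residual degree of freedom. With 2 residual degrees of freedom in the fit of all 6 libraries, a p that misses the threshold does not show that the labels act alike.

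Day 7 against vehicle was tested for the 6 genes other than Apoe and Angptl4. None of 23 pairs was called by edgeR, beside a background of 0.0144% (0.0583% in capillary-like cells and 0% in the other 3 classes), none by DESeq2, beside 0.00722%, and 1 had an unadjusted p under 0.05, Fabp4 in arterial-like cells. Fabp4 stood there at 15050.5 and 14519 CPM in vehicle, 21140.1 and 12559 CPM at day 3, and 11072 and 11441 CPM at day 7, a day 7 difference of -0.39 (SE 0.14) with an adjusted p of 0.998. In capillary-like cells the 6 day 7 differences ranged from -0.03 for Lpl (SE 0.16) to 0.24 for Fabp5 (SE 0.18). The genotype and day 7 differences were also compared between capillary-like and HEV-like cells. None of 14 pairs was called by edgeR or by DESeq2, beside backgrounds of 0.0457% for genotype and 0.00913% for day 7, and 4 had an unadjusted p under 0.05.

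**Figure D5:**
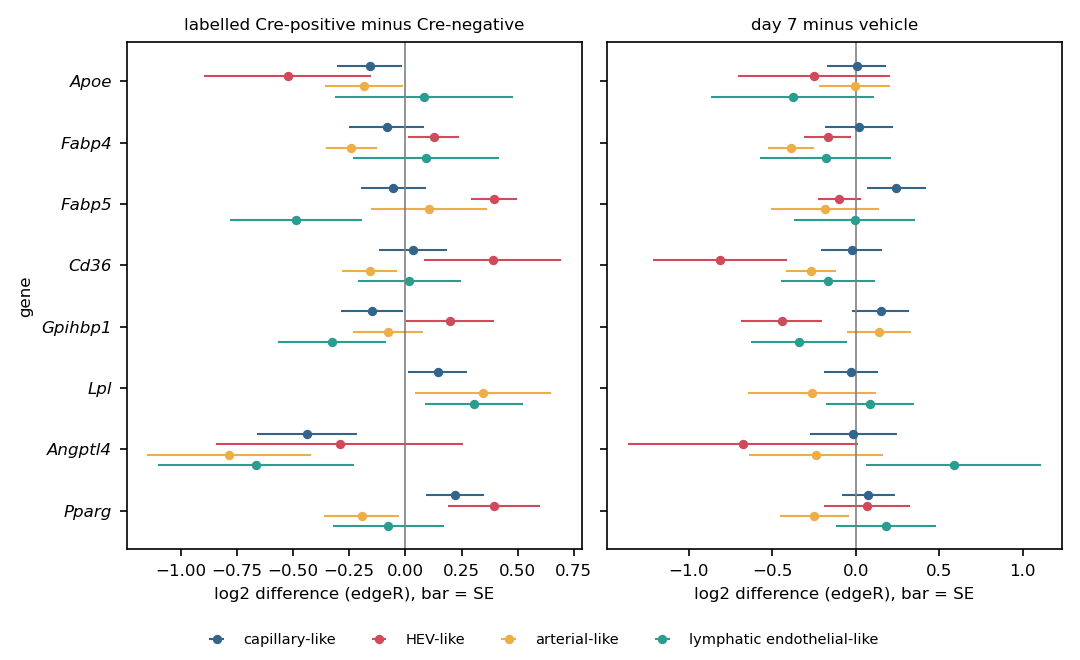
Fitted log2 differences by label (left) and at day 7 against vehicle (right) for the 8 genes (rows) in 4 endothelial classes (colours), with bars of 1 standard error. Fabp5 in HEV-like cells (0.39) lies farther from 0 by label than its bar reaches, and no value shown was called; the day 7 values of Apoe and Angptl4 are a description.

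Classes added after the cell numbers were known gave no call for the 8 genes by genotype. In cluster 9, ceiling lymphatic-like, CD45 fibroblast-like and CD45 mature dendritic-like cells, none of 26 pairs was called by genotype by edgeR or DESeq2, with 4 at an unadjusted p under 0.05. The background by genotype was 0.108% in cluster 9, 0.0266% in ceiling lymphatic-like cells, 0% in fibroblast-like cells and 0% in mature dendritic-like cells. None of 19 pairs was called at day 7, with 2 at an unadjusted p under 0.05 and 0 called by DESeq2, beside backgrounds of 0.0359%, 0%, 0.248% and 0%. Fabp5 in fibroblast-like cells had the largest genotype difference among those at an unadjusted p under 0.05, -1.17 (SE 0.27), at a level of 10.6 to 43.0 CPM. Without day 7, Fabp4 (-2.71) and Fabp5 (-1.57) in fibroblast-like cells and Angptl4 (-1.13) in cluster 9 were called lower by label, in fits with 1 residual degree of freedom that called 0.475% of all genes in fibroblast-like cells and 0.399% in cluster 9.

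The number of wider lipid genes called in endothelium at day 3 was small and changed with the processing. Lists of lipid uptake, lipase regulation, sterol efflux, PPAR and fatty acid oxidation, and lipid storage genes held 81 genes that are not among the 8. In the 4 endothelial classes, 1 of 209 pairs was called at day 3 by edgeR, lower, beside a background of 0.269% of all pairs, and DESeq2 called 4, beside a DESeq2 background of 0.777%. The edgeR count was 14 of 302 pairs with no expression filter, beside a background of 2.17% in that fit. It was 11 of 215 without the day 7 Cre-negative library (background 2.68%), 12 of 218 without the day 7 library labelled Cre-positive (2.51%), 6 of 213 without the vehicle Cre-negative library (3.36%) and 3 of 215 without the vehicle library labelled Cre-positive (0.49%). It was 0 without either day 3 library. By class the day 3 background was 0.0486% in capillary-like and 0.0439% in arterial-like cells, and 0.131% in cluster 9. The edgeR call was Hilpda, an inhibitor of the lipase ATGL that is induced by hypoxia and fatty acids, in HEV-like cells, where 1 of 57 tested list genes was called beside a background of 0.904%. The call was lost with RLE size factors and after subtracting free RNA. Hilpda was at 35.8 and 35.4 CPM in vehicle, 17.9 and 19.4 CPM at day 3, and 27.6 and 27.6 CPM at day 7. At day 3 it fell by 0.98 on the log2 scale (SE 0.16, edgeR adjusted p = 0.0492). The make-up of the HEV-like class also changed at day 3, as given for its subclusters, and its part in this value was not tested. By genotype 0 of 209 pairs was called by edgeR and 0 by DESeq2, with 16 at an unadjusted p under 0.05, and at day 7 the counts were 0 and 0, with 6. The median log2 difference at day 3 over the tested list genes was -0.14 in capillary-like cells, against 0.00 over all genes, and -0.14 in HEV-like cells, against -0.01. By list, the day 3 medians in capillary-like cells were -0.45 for the 13 tested genes of PPAR and fatty acid oxidation, -0.17 for 5 of lipase regulation, -0.11 for 13 of lipid storage, -0.05 for 9 of lipid uptake and 0.01 for 11 of sterol efflux. None of these genes was called there, and 5, 2, 3, 0 and 1 of them, in the same order, had an unadjusted p under 0.05, beside 670 of all 10285 genes tested in the class.

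In CD45 fibroblast-like cells, 1 of 68 tested list genes rose and 7 fell at day 3 by edgeR, 8 in all, a share no higher than the background of 12.1% of genes called in this class. Mgll, a monoacylglycerol lipase, fell by 2.26 on the log2 scale (SE 0.18, edgeR adjusted p = 0.0024), from 29.2 and 32.1 CPM in vehicle to 5.65 and 6.83 CPM, and was still lower at day 7, at 8.17 and 11.4 CPM (-1.66, SE 0.18). Pdk4, a PPAR target that limits glucose oxidation, fell by 1.88, from 13.7 and 14.6 CPM to 3.13 and 4.39 CPM. The lipoprotein receptors Vldlr and Lrp1 fell by 1.03 and 1.09, and Mylip, which drives degradation of the LDL receptor, fell by 1.26. Stab2, a scavenger receptor, fell by 2.13, the cholesterol exporter Abca1 fell by 0.78, and the mitochondrial carrier Ucp2 rose by 0.74. These values are over a class whose make-up changed at day 3, as given for Apoe. In capillary-like cells, where Mgll and the lipid droplet protein Plin2 were the storage genes with the highest levels, Mgll stood at 2663, 1834, 1611, 1464, 2247 and 2735 CPM in the order used for Fabp5, and Plin2 at 403, 229, 211, 172, 293 and 329 CPM. Neither was called there. For both the day 3 libraries were the lowest, an order whose share over all genes is not given here.

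Genes with patterns most like the members of the set were ranked by Pearson's r of log2(CPM + 1) over 114 sums of class and library in the CD31 fraction, among 7394 genes. The sums share libraries and free RNA, so r is a description. The caveola genes Cavin2 and Cavin1 were close to Cd36 (r = 0.92) and Fabp4 (r = 0.92), Ehd2 was closest to Fabp4 (r = 0.93), and Mgll was second for Cd36 (r = 0.91). Pparg was most like Dhrs3 (r = 0.91), Gpihbp1 was most like Gm12002 (r = 0.93) and Angptl4 was most like Gm1673 (r = 0.82). Lpl was most like Plin2 (r = 0.79). Apoe had no such close match, with Sult1a1 (r = 0.74) as its nearest gene. Among the 8, Cd36 and Fabp4 were at r = 0.90, Cd36 and Pparg at 0.87, Angptl4 and Pparg at 0.82, Fabp4 and Fabp5 at 0.62, and Apoe and Fabp5 at 0.10.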

How the data were processed

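The deposited files are 10x Genomics 3′ matrices of UMI counts per gene and cell barcode, made by the authors with Cell Ranger 7.0.1 on mm10 per the submitters' processing notes, while the file headers name Cell Ranger 4. The counts are not normalized, as their whole-number values show, and each file was assigned to its library by GEO's record and to its group by the title. The added reporter feature mRFP was dropped. It was listed for the CD31 libraries labelled Cre-positive and for CD31 day 7 Cre-negative only, so the feature lists differed partly along the label.

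The cell filter asked for at least 1000 UMIs and 500 genes, with mitochondrial UMIs at or under 10%. Scrublet scores (scanpy 1.11.5) removed the highest 0.8% per 1000 barcodes of each library, 6304 in all. In CD31 vehicle Cre-negative and CD31 day 3 Cre-positive, Scrublet's own cut flagged only 0 and 2 barcodes. There the removed barcodes had lower median UMIs than the kept ones (3932.5 against 4325 and 2203 against 3433). In every other library the removed barcodes had the higher median, so doublet removal was less sure in these libraries. Each fraction was clustered on 2000 variable genes, 30 components and 20 neighbours with Leiden at resolution 1 (leidenalg 0.10.2). The 8 genes, the lipid lists, Atg12 and mitochondrial, ribosomal, haemoglobin, immunoglobulin, T cell receptor and sex-linked genes were left out. Clusters that mixed types were split again. Names rest on marker lists, and clusters with mixed markers are given by number.

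For each class, the UMIs of a library's cells were added up and shown as CPM. Sums were fitted with edgeR 4.0.16 (quasi-likelihood, TMM, filterByExpr by genotype) on treatment and genotype, leaving 2 residual degrees of freedom. The fits given are those of the 4 planned and the 4 added classes, each with at least 20 cells in every library. Other classes that reached this number, such as floor lymphatic-like cells, are described without a fit. Benjamini-Hochberg adjustment ran over all genes of a class at 0.05. A second edgeR fit took capillary-like and HEV-like sums with library as a block. Standard errors are the log2 difference over the square root of F. Intervals for levels are exact Poisson and for shares exact binomial, at 95%, and cover counting error only. With 1 library per combination, p-values measure the spread of these libraries around an additive model. DESeq2 1.42.0 and the other alternatives are in the closing section.

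The 8 genes and the lipid lists were chosen with earlier results of these data known. Levels of all 8 were taken in every class, and the text gives a part of them. List genes are named if called, up to 4 per list and contrast, and otherwise the 2 with the highest mean CPM, and the 3 most alike genes are taken among those averaging at least 20 CPM. Fibroblast-like genes called beyond that number are named so that the count is complete. Venous-like and CD45 macrophage-like cells were too few to be fitted. Cluster 21 of the CD31 fraction (25 to 51 cells per library) mixed fibroblast and pericyte markers, so no CD31 class has either name, and it was not fitted.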

Additional observations from a re-analysis of the deposited data

How the results depend on the processing

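No paired analysis was possible because each combination of fraction, treatment and genotype has 1 library, so the replicate number 1 of every library pairs none of them, and treatment stands in the fit as a term. In the 4 planned endothelial classes, the count of the 8 genes called by genotype was 0 and stayed at 0 with RLE size factors, DESeq2, no expression filter, deeper cells, no doublet removal and 5% free RNA subtracted. It was 0 to 2 when 1 library was left out, 1 without vehicle (both vehicle libraries; Fabp4 in arterial-like cells, -0.35) and 2 without day 7. The genotype difference was nearly the same with 1 day 7 library left out as with both left out. Angptl4 in capillary-like (-0.93) and lymphatic endothelial-like cells (-1.33) made the calls without day 7. At day 7 the 6 genes tested in these classes had 0 calls, 1 with no expression filter (Fabp4 in arterial-like cells, -0.41), and 0 to 1 when 1 library was left out. In the added classes, with no expression filter, mature dendritic-like Fabp5 (-0.70) and Apoe (1.00) were called by genotype. The share of all genes called in that fit is not given here, so these calls are not read as a result about the 8 genes. Without day 7, Fabp4 (-2.71) and Fabp5 (-1.57) in fibroblast-like cells and Angptl4 (-1.13) in cluster 9 were called, beside the raised backgrounds given with the added classes. At day 7, the fibroblast-like differences were 1.35 for Fabp5 and 2.03 for Fabp4 without the CD45 day 7 Cre-negative library. For Lpl the value was 1.12 without the CD45 vehicle Cre-negative one. These fits leave 1 library at day 7 or in vehicle, so only the sizes are given. For the lipid lists, the genotype count of 0 became 1 with no expression filter, 1 without day 7 and 0 to 2 with 1 library left out. The day 7 count of 0 became 0 to 3 with 1 library left out. The day 3 count of 1 became 14 with no expression filter, 4 with DESeq2, 3 with no doublet removal, 0 with RLE size factors, 0 with free RNA subtracted and 0 to 12 with 1 library left out, and the cause was not tested. Of 144 alternative levels, 138 stayed within the spread over libraries. With free RNA subtracted, Cd36 and Pparg in HEV-like cells came to 6.24 and 5.57 CPM and Gpihbp1 in lymphatic endothelial-like cells to 9.62 CPM. With no doublet removal, Cd36 came to 36.5 CPM in HEV-like cells and 23.9 CPM in CD45 macrophage-like cells, and Gpihbp1 to 30.9 CPM in lymphatic endothelial-like cells. Of 99 differences of the 8 genes that were not called, 68 changed sign under an alternative and 12 passed the threshold under one.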
